A study of Homo sapiens with 6 samples.

Results

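The transcripts described are 10 genes that encode feedback inhibitors of MAP kinase signaling: the dual-specificity phosphatases DUSP1, DUSP2, DUSP4, DUSP5, DUSP6, DUSP8 and DUSP10, the Sprouty proteins SPRY2 and SPRY4, and the Sprouty-related protein SPRED1. They are 10 of the 58302 genes listed for each library. They were selected on these same values, with the difference between control and Smyca knockdown already known, so their levels, fold changes and overlaps below are a description without a test. All 10 passed the filter on low counts and are among the 15075 genes tested.

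RNA-seq was performed on 6 libraries, 3 from cells expressing control shRNA and 3 from cells expressing Smyca shRNA #1, and the comparison asks which transcripts depend on the lncRNA Smyca. The cells are labelled as MDA-MB-231, a human breast cancer line, in both groups. The Smyca shRNA was cloned in a pLKO.1 vector, no TGF-β or other agent is labelled for either group, and the knockdown rests on 1 shRNA, so an effect of Smyca loss and an effect particular to that shRNA cannot be told apart. The study calls the libraries of a group biological repeats, but neither it nor the labels say whether they came from separate cultures, so p-values may measure only the spread between these libraries.

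MAP kinases such as ERK, JNK and p38 are switched on by phosphorylation of a threonine and a tyrosine in their activation loop, and dual-specificity MAP kinase phosphatases remove both phosphates. Many of these phosphatases are themselves transcribed in response to MAP kinase activity, so that they close a negative feedback loop, while Sprouty and Spred proteins act further upstream, between the receptor and RAF. In breast cancer cells, their mRNA levels are often read as an output of ERK activity.

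Total counts lay between 14999307 and 16501085 per library. Smyca itself, counted as its gene MIR23AHG, was at 25.0, 19.5 and 22.0 normalized CPM (the count over the TMM-scaled library size, written as CPM) in the control and at 10.5, 6.97 and 5.61 in the knockdown. The groups did not overlap, with a log2 fold change of control over knockdown of 1.53 ± 0.26 (SE, n = 3 and 3). Its adjusted p was 0.111 by edgeR's quasi-likelihood test and 3.96e-05 by DESeq2, so the call depends on the test. In an exact two-sided permutation test p was 0.1, the smallest that 3 against 3 libraries allow. Of 10 genes listed as markers of MDA-MB-231, 9 were at a mean of at least 1 normalized CPM, and SPARC reached at most 0.677. CDKN2A, which is deleted in MDA-MB-231, was at 335 to 429 normalized CPM across the 6 libraries, which goes against the label. CDH1, which encodes E-cadherin and is at a low level or absent in MDA-MB-231, was at 71.5 to 300.1 normalized CPM, and the epithelial genes EPCAM and KRT19 were at 236 to 336 and 849.8 to 1957. The intestinal genes VIL1 and HNF4A were at 220.5 to 501 and 65.4 to 194 normalized CPM, and ESR1 and PGR were at or near 0. The cells are therefore called by their label only. In control replicate 2, the deposited FPKM values did not match the counts, and the counts were used. With whole reads recovered from those FPKM values, the groups of the same 7 of the 10 transcripts were apart as with the counts, and 6 in place of 7 reached a ratio of 1.5. The shares of all genes were not computed for this setting. These reads correlated more closely with the counts of control replicate 3 (r = 0.995) than with those of control replicate 2 (0.956), which limits this check.

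Markers of several cell types were also summed, and single markers moved with the groups inside these sums. Of 10 intestinal markers, 5 were at a mean of at least 1 normalized CPM over the 6 libraries. CDX1 had 0 counts in every library, GPA33, KRT20 and FABP1 were under 1 in every library, and LGALS4 was at 1.05 to 1.34 in the control and 0.33 to 0.70 in the knockdown. The summed level was 303 to 581 normalized CPM in the control and 641 to 721 in the knockdown, and most of it was VIL1 (220.5 to 343 against 422 to 501, no overlap) and HNF4A (65.4 to 187 against 186 to 194, overlapping). Of the 6 tested, 4 had a log2 fold change below 0: VIL1, HNF4A, CDX2 at -0.28 ± 0.25 (SE) and CDH17 at -1.23 ± 0.64. LGALS4, whose groups did not overlap, and MUC13, at 0.77 ± 0.44, were above 0.

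The sum of 10 luminal breast markers, 7 of them at a mean of at least 1, was 1446 to 2691 in the control and 1418 to 1756 in the knockdown, and most of it was KRT19. Within this list AGR2 did not overlap, at 65.4 to 82.7 against 27.1 to 47.2 normalized CPM, with a log2 fold change of 1.125 ± 0.226 (SE) and an adjusted p of 0.111 by edgeR and 0.00126 by DESeq2. The sum of the 10 listed MDA-MB-231 markers was 703 to 1522 and 751 to 1154, with MSN as its largest part. Of the 9 tested, 8 had a log2 fold change above 0. VIM was at 148 to 305 in the control and 71.2 to 130 in the knockdown (1.09 ± 0.30, adjusted p = 0.131 by edgeR and 0.0147 by DESeq2), and ZEB1 did not overlap either (0.71 ± 0.22, adjusted p = 0.149 by edgeR and 0.0642 by DESeq2). CAV1 at 1.01 ± 0.40, CD44 at 0.94 ± 0.39 and TNC at 1.36 ± 0.63 had overlapping groups, and TGFBI, at -0.31 ± 0.16, was lower in every control library than in any knockdown library. Of 10 hepatic markers, 1, SERPINA1, was at a mean of at least 1, AFP, APOB, TTR and FGB had 0 counts in every library, and the sum was 29.7 to 51.4 in the control and 26.9 to 74.4 in the knockdown. The part of these markers in the results below was not tested. In bulk RNA, fewer cells of a type and less RNA per cell cannot be told apart.

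All 10 transcripts had a log2 fold change above 0, which means a higher fitted level in the control, as did 53.4% of all genes tested. The median of the 10 was 0.98 on the log2 scale and that of all genes tested was 0.04. The 10 ranged from 0.09 (SPRED1) to 2.17 (DUSP1). For 7 of the 10 (DUSP1, DUSP2, DUSP5, DUSP6, DUSP8, DUSP10 and SPRY2) every control library was above every knockdown library, where 12.4% of all genes tested had such groups. The same 7 had a ratio of at least 1.5, which held for 15.6% of all genes tested. DUSP1 alone met the criteria for a DEG by edgeR, which ask for an adjusted p below 0.05 and a ratio that reaches 1.5 or is no higher than 0.66, and 0.0265% of all genes tested met them. It was no longer called with the replicate numbers as a block, or when any library other than control replicate 3 was left out. Without control replicate 3, 6 of the 10 and 10.5% of all genes tested were called. With DESeq2, the same 7 transcripts and 5.55% of all genes met these criteria. Since the transcripts were selected on this contrast, nothing is read from these shares.

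**Figure D1:**
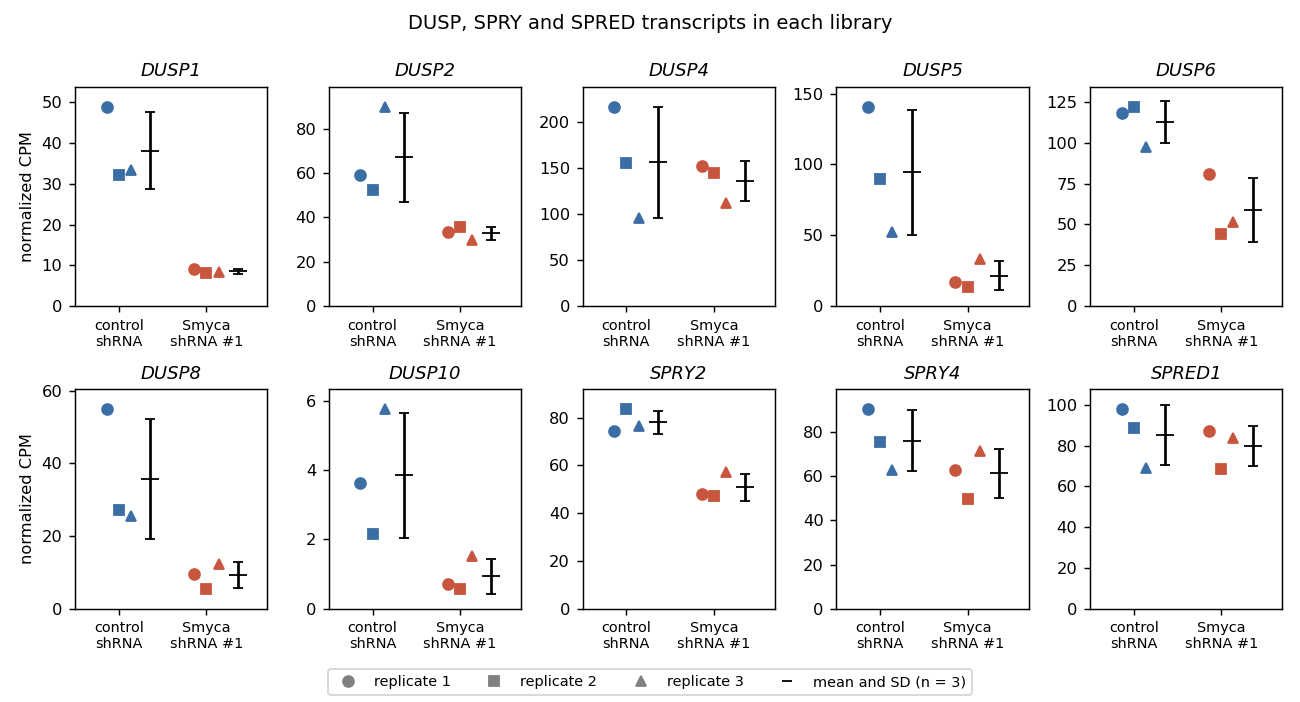
Normalized CPM (y axis, from 0) of each of the 10 transcripts in the 3 control shRNA libraries (blue) and the 3 Smyca shRNA #1 libraries (red), with replicate numbers as symbols and the mean and SD (n = 3) in black. The groups are apart for DUSP1, DUSP2, DUSP5, DUSP6, DUSP8, DUSP10 and SPRY2 and overlap for DUSP4, SPRY4 and SPRED1.

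The nuclear, inducible phosphatases come first. DUSP1 (MKP-1, ENSG00000120129) dephosphorylates mainly p38 and JNK and is one of the fastest genes to be transcribed after a stimulus. It lies on the minus strand of chromosome 5, at chr5:172768096-172771195 in GRCh38 with 4 exons. Its level was 48.9, 32.1 and 33.4 normalized CPM in the control and 9.14, 7.98 and 8.32 in the knockdown. All 3 control libraries were high and all 3 knockdown libraries low, and the lowest control value was 3.51 times the highest knockdown value, the widest gap of the 10. The log2 fold change was 2.17 ± 0.21 (SE), a ratio of 4.49. The knockdown libraries lay close together, with an SD of 7.04% of the mean, and the control libraries were wider apart, with an SD of 24.6%.

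DUSP8, a phosphatase of JNK and p38 described further below, shares a promoter feature with DUSP1. In the RefSeq promoter table (GRCh38.p14, windows from 250 bases before to 50 bases after each transcription start), 8 of the 10 genes were matched, with 11 windows. The full cAMP response element, TGACGTCA, which CREB and ATF proteins bind, was found in 2 of these 8 genes, DUSP1 and DUSP8, and in 1.85% of all 35116 windows. The bases before the start of both are shown because they hold these sites, on the minus strand and written 5′ to 3′ up to the last base before the start, DUSP1 from chr5:172771196-172771445 and DUSP8 from chr11:1572272-1572521. Capitals mark the full element, its short form TGACGT and the TATA box TATAAA.
DUSP1: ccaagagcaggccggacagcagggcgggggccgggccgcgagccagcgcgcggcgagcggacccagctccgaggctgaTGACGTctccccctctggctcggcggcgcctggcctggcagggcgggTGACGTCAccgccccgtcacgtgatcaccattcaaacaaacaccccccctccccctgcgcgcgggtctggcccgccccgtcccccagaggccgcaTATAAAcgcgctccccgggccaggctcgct
DUSP8: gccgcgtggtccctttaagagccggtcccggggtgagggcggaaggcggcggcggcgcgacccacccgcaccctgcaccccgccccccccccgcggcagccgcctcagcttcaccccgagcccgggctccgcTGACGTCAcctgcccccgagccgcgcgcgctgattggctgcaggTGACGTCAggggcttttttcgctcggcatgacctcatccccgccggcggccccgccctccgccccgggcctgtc

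In DUSP1 the full element starts at position -125 and a further short form at -172, counted with -1 as the base before the start. In DUSP8 full elements start at -118 and -74. Each full element also holds the short form on both strands, and the short form was found in 7.98% of all windows. Searched on both strands, the E-box CACGTG was found in DUSP1 (-108) and DUSP2 (-113) and in 7.26% of all windows, and the TATA box TATAAA in DUSP1 (-30) and in 11.5%. The AP-1 site TGANTCA (7.71% of all windows), the CArG box (1.29%), the ETS site CCGGAAGT (4.14%) and the Smad palindrome GTCTAGAC (0.202%) matched 0 of the 8 genes within these windows. A match is a stretch of letters, and binding was not measured in these libraries.

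DUSP2 (PAC-1, ENSG00000158050), a nuclear phosphatase of ERK and p38, lies at chr2:96143169-96145440 on the minus strand. It was at 58.9, 52.4 and 89.9 normalized CPM in the control and at 33.4, 35.4 and 29.7 in the knockdown. Control replicate 3 was the highest library, and the groups did not overlap. This gave a log2 fold change of 1.03 ± 0.22 (SE), a ratio of 2.04.

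DUSP5 (ENSG00000138166), a nuclear phosphatase that acts on ERK, lies on the plus strand at chr10:110497907-110511533. Its level was 141, 89.8 and 52.3 normalized CPM in the control and 17.3, 13.7 and 33.2 in the knockdown. The control libraries spread over 2.69 times, with replicate 1 the highest, and the lowest of them was still 1.58 times the highest knockdown library. The log2 fold change was 2.14 ± 0.42 (SE), a ratio of 4.41. Its SE was wider than that of DUSP1 although more reads were counted, 216 to 2281 per library for DUSP5 and 126 to 793 for DUSP1. The processed pseudogene DUSP5P1 had at most 12 counts in any library.

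DUSP4 (MKP-2, ENSG00000120875), a nuclear phosphatase of ERK and JNK on the minus strand of chromosome 8, had overlapping groups. It was at 217, 156 and 96.2 normalized CPM in the control and at 152, 144 and 112 in the knockdown. Control replicate 1 was the highest and control replicate 3 the lowest of all 6 libraries, so the knockdown values lay inside the range of the control. The log2 fold change was 0.20 ± 0.28 (SE), less than its own error, and -0.11 when control replicate 1 was left out.

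DUSP6 (MKP-3, ENSG00000139318), at chr12:89347235-89352501 on the minus strand, encodes the cytoplasmic phosphatase of ERK. Its level was 118, 122 and 97.8 normalized CPM in the control and 81.0, 44.2 and 51.4 in the knockdown. Knockdown replicate 1 was the nearest to the control, and the lowest control library was 1.21 times as high. Its log2 fold change was 0.94 ± 0.23 (SE), a ratio of 1.91. In contrast to DUSP1, the spread was larger in the knockdown, with an SD of 33.1% of the mean against 11.6% in the control.

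DUSP8 (ENSG00000184545) and DUSP10 (MKP-5, ENSG00000143507) act on JNK and p38. DUSP8, at chr11:1554051-1572271 on the minus strand, was at 54.9, 27.1 and 25.4 normalized CPM in the control and at 9.65, 5.32 and 12.4 in the knockdown. Control replicate 1 was the highest, the lowest control library was 2.05 times the highest knockdown library, and the log2 fold change was 1.97 ± 0.39 (SE), a ratio of 3.92. DUSP8 has a processed pseudogene, DUSP8P5, with 184, 159 and 228 counts in the control and 141, 152 and 110 in the knockdown, beside 889, 441 and 397 and 152, 84 and 188 for DUSP8. Reads shared by such near copies may have been split or lost in counting, so the DUSP8 level is uncertain.

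DUSP10, at chr1:221701424-221742089 on the minus strand, was the lowest of the 10. It had 59, 35 and 90 counts in the control and 11, 9 and 23 in the knockdown, or 3.64, 2.15 and 5.76 against 0.70, 0.57 and 1.52 normalized CPM. The groups did not overlap, with the lowest control library 1.42 times the highest knockdown library. The log2 fold change of 2.05 ± 0.51 (SE) had the largest error of the 10, and counts this low limit its precision.

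SPRY2 (ENSG00000136158), at chr13:80335976-80341126 on the minus strand, encodes a Sprouty protein that blocks growth factor receptors from activating the RAS and ERK pathway. It was at 74.4, 83.4 and 76.3 normalized CPM in the control and at 48.0, 47.1 and 57.2 in the knockdown. The control libraries lay within 1.12 times of each other and all were above the knockdown, by 1.3 times at the nearest. This was a log2 fold change of 0.62 ± 0.14 (SE), a ratio of 1.54, the smallest of the 7 transcripts whose groups did not overlap and the one with the smallest error.

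SPRY4 (ENSG00000187678), a Sprouty protein at chr5:142310427-142326455 on the minus strand, was at 90.4, 75.6 and 62.7 normalized CPM in the control and at 62.7, 49.6 and 71.7 in the knockdown. Knockdown replicate 3 was above control replicate 3, and the log2 fold change was 0.31 ± 0.19 (SE). SPRED1 (ENSG00000166068), on the plus strand at chr15:38252836-38357249, brings the RAS-inactivating protein neurofibromin to the membrane. It was at 97.8, 88.7 and 68.8 normalized CPM in the control and at 87.2, 68.5 and 83.8 in the knockdown. Its groups overlapped almost fully, and its log2 fold change of 0.09 ± 0.18 (SE) was smaller than its error. Its sign changed in 3 of 13 alternatives, with a lowest value of -0.02.

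Genes annotated on the other strand over DUSP1, DUSP6, DUSP8 and SPRY4 had at most 23 counts in any library, the highest being SPRY4-AS1. The libraries were stranded, and whether the counting used the strand is not given in the sources used here.

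The libraries of a group did not order the 10 transcripts alike. In the control, replicate 1 was the highest library for 6 of them (DUSP1, DUSP4, DUSP5, DUSP8, SPRY4 and SPRED1), replicate 3 for DUSP2 and DUSP10, and replicate 2 for DUSP6 and SPRY2. Control replicate 3 was the lowest for 6 (DUSP4, DUSP5, DUSP6, DUSP8, SPRY4 and SPRED1). In the knockdown, replicate 2 was the lowest for 8 of the 10, all but DUSP2 and DUSP4, and replicate 3 was the highest for 5 (DUSP5, DUSP8, DUSP10, SPRY2 and SPRY4). With control replicate 3 left out, the groups of all 10 were apart, SPRED1, SPRY4 and DUSP4 included, and with these 2 control libraries so were those of 25.7% of all genes tested, higher in the control.

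Levels were compared between genes per length, as normalized CPM per kilobase of the gene length behind the deposited FPKM. In the control, DUSP6 was the highest at 65.5 ± 7.61 (SD, n = 3), followed by DUSP5 at 55.9 ± 26.3 and DUSP2 at 54.5 ± 16.3. SPRY4 was at 42.4 ± 7.71, DUSP4 at 36.8 ± 14.2, SPRY2 at 32.4 ± 1.97 and SPRED1 at 26.9 ± 4.69. The lowest were DUSP1 at 18.9 ± 4.64, DUSP8 at 11.2 ± 5.18 and DUSP10 at 2.52 ± 1.19. The control libraries of neighbours in this order overlapped, except that all of DUSP8 were above all of DUSP10.

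In the knockdown, DUSP6 was at 34.2 ± 11.3 normalized CPM per kilobase, level with SPRY4 at 34.1 ± 6.18 and DUSP4 at 32.0 ± 5.05. DUSP5 stood second in the control and seventh in the knockdown, at 12.7 ± 6.16, and DUSP1 was at 4.20 ± 0.30. Summed over the 7 DUSP members, the level was 245 ± 43.8 normalized CPM per kilobase in the control and 113 ± 13.4 in the knockdown, while SPRY2, SPRY4 and SPRED1 together were at 102 ± 12.2 and 80.4 ± 10.8. The order depends on the length used. With the union of annotated exons in GENCODE release 44, 3 of the 10 (DUSP4, DUSP8 and DUSP10) kept their place in the control, and DUSP5 at 37.2, DUSP2 at 34.8 and DUSP6 at 29.2 normalized CPM per kilobase were the highest, with SPRY4 at 11.6.

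**Figure D2:**
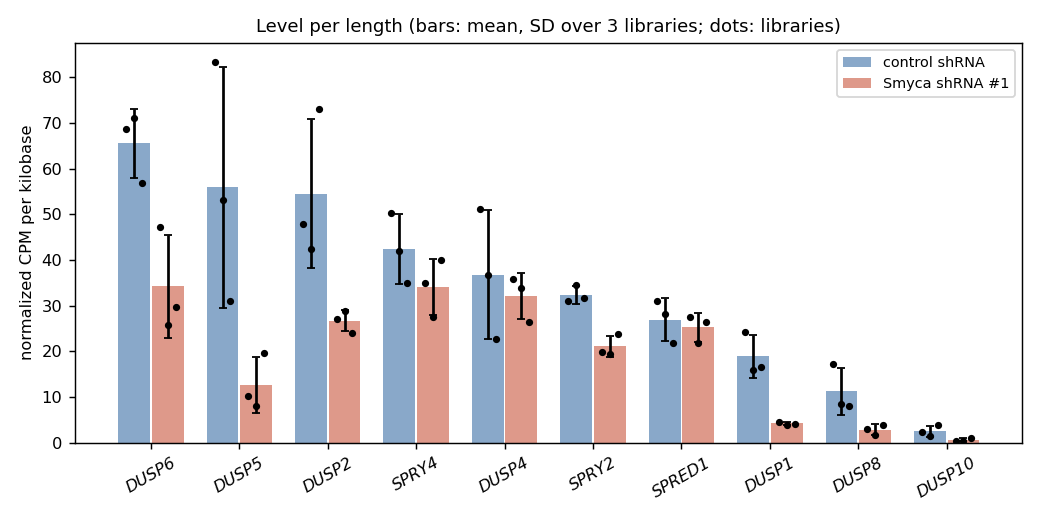
Level per length, in normalized CPM per kilobase (y axis, from 0), of the 10 transcripts in control shRNA (blue) and Smyca shRNA #1 (red) libraries, as the mean and SD of 3 libraries, with dots for single libraries and genes in the order of the control mean. DUSP6 is the highest in the control at 65.5, and DUSP5 has control and knockdown means of 55.9 and 12.7.

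The pentamer ATTTA in the part of a transcript after the coding sequence is a feature of many short-lived mRNAs. Among 18175 protein-coding GENCODE transcripts, 71.3% had at least 1, with a median of 1.67 per kilobase. DUSP1 had 4 in 666 bases, or 6.01 per kilobase, the highest density of the 10, followed by DUSP2 with 3 (4.59 per kilobase) and SPRED1 with 24 (4.30). DUSP10 was at 3.04, SPRY2 at 2.56, SPRY4 at 2.12, DUSP8 at 1.62, DUSP4 at 1.51 and DUSP6 at 0.50 per kilobase, and DUSP5 had 0. The nonamer TTATTTATT was present in DUSP1, DUSP4 and DUSP8 and in 9.0% of all these transcripts. DUSP1 had the highest density and also the highest log2 fold change of the 10, at 2.17. DUSP5 and SPRED1, at 0 and 4.30 per kilobase, had log2 fold changes of 2.14 and 0.09. A link between density and fold change was not tested.

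The genes most alike in pattern were found among 10463 other genes, by the root mean square difference of centred log2 values over the 6 libraries. For DUSP1 they were ZFP36 (0.18), ATP6AP1L (0.20), B4GALNT4 (0.20), C6orf141 (0.21) and ARC (0.23). For DUSP6 they were WIPI1 (0.10), BCAN-AS1 (0.12), ARHGEF25 (0.13), TJP3 (0.16) and EGR4 (0.16). The difference between the groups is part of this measure, and DUSP1 and DUSP6 themselves differ in log2 fold change, at 2.17 and 0.94. That the 5 genes of DUSP1 and those of DUSP6 have none in common is therefore not read as a result.

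The rest of the pathway was described from 6 lists of 87 genes, of which 83 were tested. By edgeR's quasi-likelihood test 0 of the 83 were DEGs, beside 0.0265% of all genes tested. There were 5 without a filter on low counts, where 3.01% of all genes tested were called. Without control replicate 3 there were 11, where 10.5% of all genes tested were called. At an unadjusted p under 0.05, 10 were higher in the control (12% of the 83, against 10.4% of all genes tested) and 4 were lower (4.82% against 8.74%). DESeq2 called 5 of the 83 (6.02%, against 5.55% of all genes tested): DUSP7, PLAUR, IER3, FOSL1 and ERRFI1. These shares of all genes tested also stand beside the counts of each list below.

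**Figure D3:**
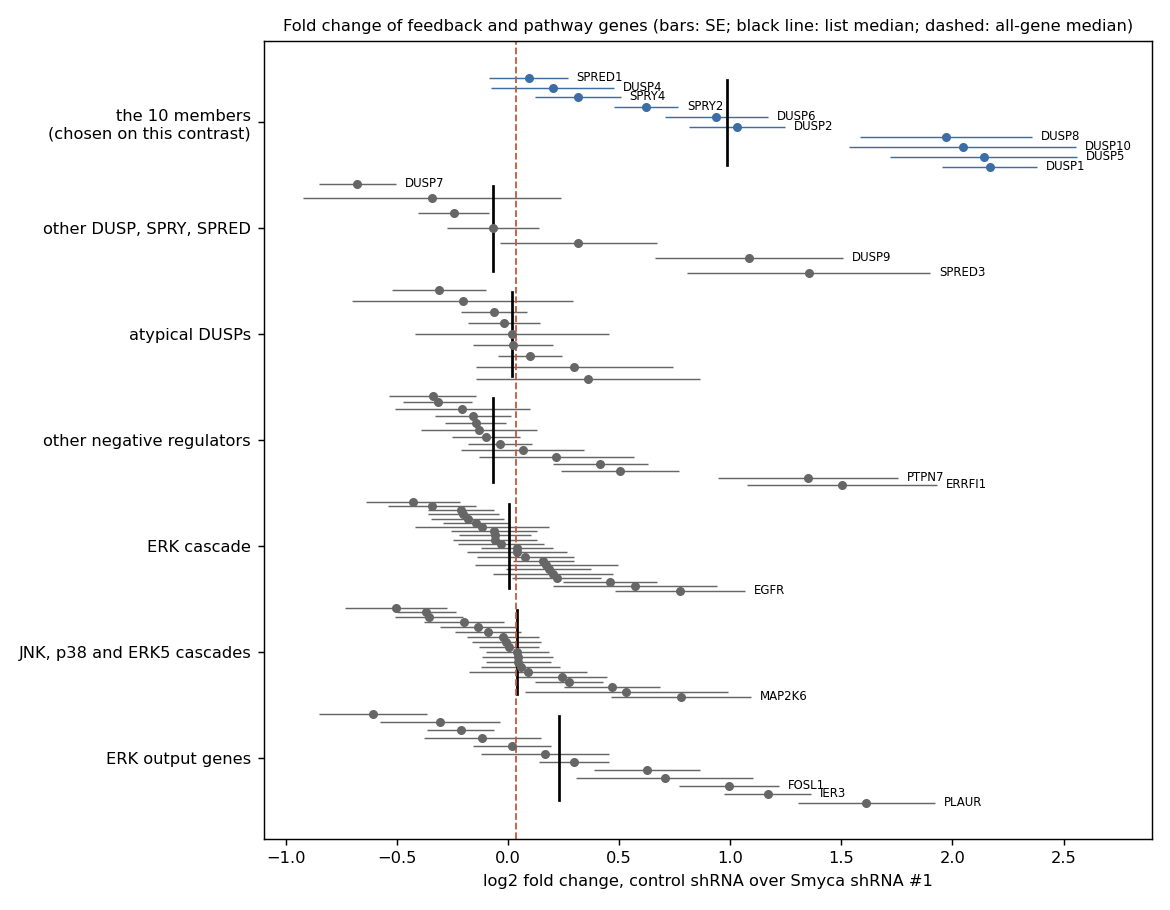
Log2 fold change of control shRNA over Smyca shRNA #1 (x axis) with its SE for the 10 members (blue) and for the tested genes of 6 pathway lists (grey), with the median of each list in black and the median of all genes tested, 0.04, dashed. The members were selected on this contrast and have a median of 0.98, and the list medians lie between -0.07 and 0.23.

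Of the 7 other genes of the same families (DUSP7, DUSP9, DUSP16, SPRY1, SPRY3, SPRED2 and SPRED3), 3 had a log2 fold change above 0, and the median was -0.07. At an unadjusted p under 0.05, 2 were higher and 1 was lower in the control, and DESeq2 called 1. DUSP7, a cytoplasmic ERK phosphatase close to DUSP6, lay in the opposite direction to it, at 27.5, 29.3 and 33.8 normalized CPM in the control and 43.4, 57.9 and 43.5 in the knockdown. Its groups did not overlap, and its log2 fold change was -0.68 ± 0.17 (SE) with an adjusted p of 0.125 by edgeR and 0.0242 by DESeq2. SPRED3, at 8.95, 7.69 and 1.79 against 1.65, 2.72 and 2.84 normalized CPM, overlapped between the groups, with control replicate 3 among the knockdown libraries. DUSP9 was low throughout, at 0.82 to 2.89 normalized CPM, with a log2 fold change of 1.08 ± 0.42, and its groups did not overlap.

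Atypical DUSPs, small phosphatases without the MAP kinase binding domain, served as a comparison within the superfamily. Of 11 listed, 9 were tested, and their log2 fold changes lay between -0.31 (DUSP12) and 0.36 (DUSP15), with DUSP18 at 0.30 and a median of 0.02. At an unadjusted p under 0.05 there were 0, and DESeq2 called 0.

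For the kinases and adaptors of the cascades, the list medians were near that of all genes tested. Of 22 tested genes of the ERK cascade, from receptor to RSK kinases, 11 had a log2 fold change above 0 and the median was 0.00, with 1 at an unadjusted p under 0.05 and 0 called by DESeq2. The largest were EGFR, the epidermal growth factor receptor, at 0.77 ± 0.29 (SE, adjusted p = 0.206 by edgeR), KSR1, a scaffold of RAF and MEK, at 0.57 ± 0.37, and SOS2, a RAS exchange factor, at 0.46 ± 0.21. Of 19 tested genes of the JNK, p38 and ERK5 cascades the median was 0.04, with 1 higher and 2 lower in the control at an unadjusted p under 0.05 and 0 called by DESeq2. The largest were MAP2K6, a kinase that activates p38, at 0.78 ± 0.32, MAPK11, which encodes p38β, at 0.53 ± 0.46, and MAP3K1, an upstream kinase of JNK, at -0.51 ± 0.23. Of these 6 genes, SOS2 and MAP2K6 had groups that did not overlap, both higher in the control. Over the whole ERK cascade list, 1 gene without overlap was higher and 1 was lower in the control. In the list of the other cascades, 3 were higher and 2 were lower. Of all genes tested, 12.4% were apart and higher in the control.

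Of genes that are commonly read as ERK output, 12 outside the 10 members were tested, with a median of 0.23 and 8 above 0. At an unadjusted p under 0.05, 4 of them were higher in the control and 1, CCND1, was lower, beside 10.4% and 8.74% of all genes tested. DESeq2 called 3, beside 5.55% of all genes tested. The largest was PLAUR, the urokinase receptor, at 80.0, 54.0 and 30.5 normalized CPM in the control and 18.3, 17.04 and 18.4 in the knockdown. Its log2 fold change was 1.61 ± 0.31 (SE) with an adjusted p of 0.111 by edgeR and 0.000158 by DESeq2. IER3, an early response gene, was at 719, 541 and 609 against 345, 232 and 255 normalized CPM (1.17 ± 0.20, adjusted p = 0.111 by edgeR and 3.1e-05 by DESeq2). FOSL1, the AP-1 subunit FRA1, was at 255, 153 and 156 against 94.4, 108 and 81.5 (0.99 ± 0.23, adjusted p = 0.114 by edgeR and 0.00487 by DESeq2). The groups of these 3 genes did not overlap, and those of every other gene of the list did. Of all genes tested, 12.4% were apart and higher in the control. CCND1, the cell cycle regulator cyclin D1, lay in the other direction, at 273, 219 and 428 normalized CPM in the control and 479.8, 502 and 419 in the knockdown, with a log2 fold change of -0.61 ± 0.24 (SE) and an adjusted p of 0.221 by edgeR and 0.128 by DESeq2. Its groups overlapped. CCND1 and the single markers above were chosen for naming after their values were seen.

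Other negative regulators of the pathway, outside the DUSP, SPRY and SPRED families, had a median of -0.07 over 14 tested, with 6 above 0, 2 higher and 0 lower in the control at an unadjusted p under 0.05, and 1 called by DESeq2. ERRFI1 (MIG6), which binds and inhibits the EGFR kinase, was at 679, 354 and 204 normalized CPM in the control and 190, 90.7 and 156 in the knockdown, with a log2 fold change of 1.502 ± 0.428 (SE) and an adjusted p of 0.137 by edgeR and 0.00786 by DESeq2. PTPN7, a tyrosine phosphatase of MAP kinases, was at 0.63 to 3.08 normalized CPM, with a log2 fold change of 1.35 ± 0.41 and an adjusted p of 0.144 by edgeR and 0.113 by DESeq2. CBLB, a ubiquitin ligase for activated receptors, was at 0.50 ± 0.27 on the log2 scale. The groups of ERRFI1 and PTPN7 did not overlap, with all control libraries above the knockdown, and those of CBLB overlapped. In the same list, 1 further gene had groups that did not overlap, with all control libraries below the knockdown. Of all genes tested, 12.4% were apart and higher in the control.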

How the data were processed

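RNA-seq was performed on 3 control shRNA and 3 Smyca shRNA #1 libraries, grouped by their labels. From rRNA-depleted total RNA, the authors made stranded paired-end libraries, aligned the reads to GRCh38 (TopHat2 2.0.12 in the submitters' processing notes) and obtained a count per gene by HTSeq. For each library the deposited table gives a raw count and an FPKM value for 58302 genes. Symbols were matched for 57532 genes through GENCODE release 44. Counts were used for each fit, and FPKM values for gene lengths and for an alternative. In 5 libraries the FPKM is the count over length and total. In control replicate 2 it matched the counts within 1% for 342 of 23593 genes and gave 16759253 whole reads (100% of values under 200 reads within 0.1 of a whole number), which correlated with the counts of control replicate 3 (r = 0.995 across 13499 genes, log2) more closely than with its own (0.956). Genes are not independent replicates.

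Fits used edgeR 4.0.16 in R 4.3.3 (TMM, filterByExpr, quasi-likelihood test of control against knockdown, Benjamini-Hochberg adjustment over 15075 genes). DESeq2 1.42.0 was an alternative. The paper's DESeq was not used here. Likeness of pattern used log2(normalized CPM + 1) of genes whose mean normalized count was 100 or more. The code was tested on simulated counts. Named genes are every member, MIR23AHG, each DEG and the 3 genes with the largest absolute log2 fold change of each list, and the 5 genes most like DUSP1 and DUSP6. CCND1 and single marker genes fall outside this rule and were named after their values were seen. The members, lists and tests were chosen with earlier results of these data known. Other alternatives were RLE size factors, total counts, no filter, at least 10 counts in every library, the replicate block, each replicate left out, and FPKM-derived reads of control replicate 2. Motifs were searched as exact letters in RefSeq promoters. A planned description of protein sequences was not run, and Smyca was counted as annotated under MIR23AHG.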

Additional observations from a re-analysis of the deposited data

Results flagged for a closer look

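The FPKM column of control replicate 2, which was not used in the comparison, held a different value for DUSP2 than the counts of the same library. The whole reads behind it came to 1708, or 102 CPM without TMM scaling, above the 54.7 to 93.6 CPM of the 3 control libraries. For 4 of the other transcripts these reads lay below all 3 control libraries, with DUSP1 at 30.8 CPM (control 33.5 to 48.1), DUSP5 at 49.9 (54.5 to 138), DUSP6 at 99.8 (102 to 128) and SPRY4 at 62.8 (65.3 to 88.8). DUSP4, DUSP8, DUSP10, SPRY2 and SPRED1 lay within the control range. With these reads in place of the counts, the log2 fold change of DUSP2 was 1.32. Groups of 3 libraries are too small for the test of single outlying samples.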

How the results depend on the processing

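Several log2 fold changes moved by more than their SE in single alternatives. DUSP2 went from 1.03 ± 0.22 (SE) to 1.32 with FPKM-derived reads, and DUSP10 from 2.05 ± 0.51 to 2.58 without knockdown replicate 3. Over 13 alternatives, 125 of 129 fold changes of the 10 transcripts kept their sign. The exceptions changed sign: DUSP4 was at -0.106 without control replicate 1, and SPRED1 at -0.023 with FPKM-derived reads of control replicate 2, at -0.015 without control replicate 1 and at -0.012 without knockdown replicate 2. Over all single libraries left out, DUSP4 ranged from -0.106 to 0.447, SPRED1 from -0.015 to 0.218 and SPRY4 from 0.176 to 0.431. DUSP10 was not tested with at least 10 counts in every library. The count of transcripts with a ratio of at least 1.5 stayed at 6 or 7. The calls depend on the setting far more. DEGs among all genes tested went from 4 (0.0265%) to 916 of 30409 (3.01%) without a filter on low counts, 836 (5.55%) with DESeq2, 0 with the replicate block and 1628 of 15449 (10.5%) without control replicate 3, with 0 to 2 when any other library was left out. DEGs among the 10 went from 1 to 6 without a filter on low counts, 7 with DESeq2 and 0 with the replicate block, and were 0 to 6 when single libraries were left out, with 6 without control replicate 3 and 0 without any other. DEGs among the 83 pathway genes went from 0 to 5 without a filter and 5 with DESeq2, and were 0 to 11 when single libraries were left out, with 11 without control replicate 3, the setting with 10.5% of all genes called. Smyca met the criteria without a filter (log2 fold change 1.49), with DESeq2 (1.51) and without control replicate 3 (1.53), and its fold change was 1.33 to 1.81 over all settings, with adjusted p from 3.96e-05 to 0.44. The cause was not tested. With gene lengths from the annotation, 3 of 10 transcripts kept their place in the order of levels. Replicate numbers did not pair the libraries, with correlations of same-numbered deviations of 0.06, 0.08 and -0.01, so the block is given only as an alternative. Without a composition factor the median of all genes was 0.11 in place of 0.04 on the log2 scale. DUSP10 rests on 9 to 90 counts, which limits its precision.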
